A study of Drosophila melanogaster x Drosophila sechellia and Drosophila melanogaster and Drosophila sechellia with 12 samples.

Results

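The X-chromosomal editing sites are the 219 positions that the deposited tables place on chromosome X of the D. melanogaster build dm3, out of 1058 positions on all chromosomes. They were chosen by chromosome alone, so no measured level entered the choice. The sites lie between positions 471764 and 21904571, and joining sites within 1000 bases of each other gave 62 loci, numbered here from 1 to 62 in order of position. The other 839 sites fall into 247 loci on the other chromosomes. The tables give positions without gene names, so sites are named by position only.

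A-to-I RNA editing is the deamination of adenosine to inosine in RNA by ADAR enzymes, which act on double-stranded stretches of the transcript. Inosine is read as guanosine, so editing appears as G reads at a genomic A, and a genomic G reads the same way as a fully edited A. Flies have 1 Adar gene, X-linked in D. melanogaster, and its known targets include many transcripts of the nervous system. A female hybrid carries 1 X chromosome from each species, so both alleles of an X site are transcribed in the same cells and meet the same enzyme.

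The study amplified 493 loci by multiplexed PCR from RNA of the heads of adult females aged 0 to 2 days and sequenced the products (mmPCR-seq). The 12 libraries comprise 3 of D. melanogaster x D. sechellia F1 hybrids mutant for the D. melanogaster Adar gene (Adar F1), 3 of F1 hybrids without that mutation, 2 of a mixture of both parent species (mixed parents), 2 of D. sechellia (D.sec) and 2 of D. melanogaster (D.mel). The labels name neither the Adar allele nor the stocks nor which species was the mother. Nothing in them ties a replicate to its own flies, so a p-value here reflects variation among the libraries sequenced, possibly technical variation only.

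The editing level is the percentage of G among A and G reads. It was taken from reads of the library's own species in D.sec and D.mel, and from each allele or from both alleles summed in the other groups. A site was used where every library or allele compared held at least 50 reads. Libraries held 251870 to 398284 reads in all, of which 19.1% to 23.1% lay at X sites. At least 50 reads were present in every library at 140 X sites in 43 loci. The number of X sites covered in all libraries of a group was 163 in Adar F1, 200 in F1, 199 in mixed parents, 180 in D.sec and 198 in D.mel. Intervals and limits given here cover counting error only, because PCR reads without molecular identifiers are not independent molecules.

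X sites occurred in tight groups. Of the 62 loci, 19 held 1 site, 29 held 2 to 4, 7 held 5 to 7 and 7 held 8 or more, and the last class held 82 of the 219 sites. The median distance between neighbouring sites of a locus was 7 bases, 92 of the 157 such distances were at most 10 bases, and 26 were 1 base. Sites of a locus share amplified fragments and reads, so they are not independent of each other. Most levels were low. Among the 140 sites covered everywhere, the median level was 4.19% in Adar F1, 6.83% in F1, 6.55% in mixed parents, 4.23% in D.sec and 7.15% in D.mel. Levels of 50% or more were found at 14 of these sites in Adar F1, 14 in F1, 15 in mixed parents, 17 in D.sec and 14 in D.mel.

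Before levels are compared, the assignment of reads to species has to be considered, since a library of 1 species should hold reads of that species only. The share of X reads given to the other species was 9.87% in D.sec replicate 1 (95% Wilson interval 9.64 to 10.1%) and 3.09% in D.sec replicate 2 (2.95 to 3.23%). It was 6.72% in D.mel replicate 1 (6.55 to 6.89%) and 6.23% in D.mel replicate 2 (6.06 to 6.40%). At sites of the other chromosomes the shares were 2.17%, 0.811%, 0.791% and 0.831% in the same order of libraries, so every library gave more reads to the other species on X. At 61 of 219 X sites (27.9%), against 93 of 839 sites elsewhere (11.1%), more than 5% of the reads of at least 1 such library were given to the other species; this limit was set after the values were seen.

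These reads came from a few loci. At locus 1 and locus 49 all reads of both D.sec libraries were given to D.mel, and at locus 53 all reads of both D.mel libraries were given to D.sec. At locus 52, 98.7% and 98.5% of the reads of the D.mel libraries were given to D.sec. At such loci one species has no level of its own, and they drop out of comparisons between species. At loci 3, 5, 6 and 61 the libraries of one species disagreed: the share given to D.mel was 99.2%, 33.8%, 46.8% and 24.0% in D.sec replicate 1, against 0%, 0.162%, 0% and 1.29% in D.sec replicate 2.

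**Figure D1:**
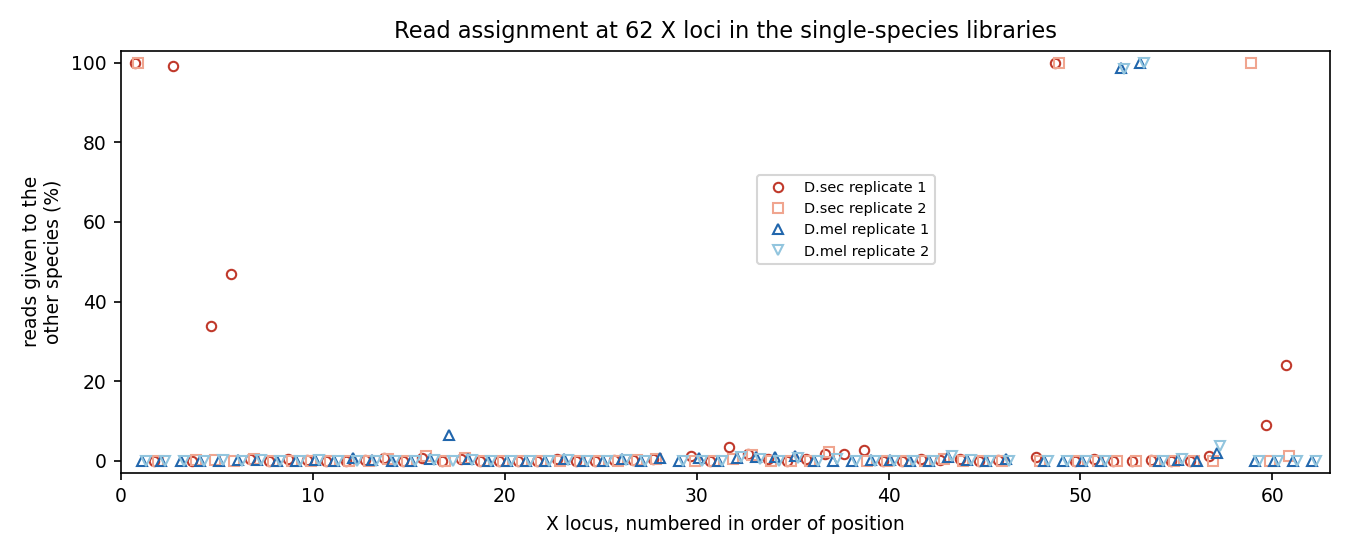
Percentage of reads given to the other species (vertical axis) at each of the 62 X loci in order of position (horizontal axis), for the 2 D.sec and the 2 D.mel libraries, where a library held at least 50 reads at the locus. Most loci lie near 0, while loci 1 and 49 reach 100% in D.sec, locus 53 reaches 100% in D.mel, and loci 5 and 6 stand at 33.8% and 46.8% in D.sec replicate 1.

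One hybrid library also stood apart at X sites on the D.mel allele. Adar F1 replicate 1 lay more than 10 points from both other Adar F1 libraries, on the same side, at 9 of 143 X sites. Elsewhere this held at 12 of 511 sites. The 10-point step was chosen after the values were seen. On the D.sec allele of that library it held at 1 of 77 X sites, against 15 of 417 sites elsewhere. F1 replicate 1 stood apart on the D.mel allele at 1 of 189 X sites, against 17 of 753 sites elsewhere. At X 19535625 (locus 60) the D.mel allele read 100% G in Adar F1 replicate 1 (160 reads, 95% Wilson interval 97.7 to 100%), 10.7% in replicate 2 (234 reads, 7.34 to 15.3%) and 17.1% in replicate 3 (152 reads, 11.9 to 23.9%). The 3 F1 libraries held 16.2%, 16.3% and 16.7% there. At X 4253674 (locus 15) the pattern was the other way round. The D.mel allele read 10.4% in Adar F1 replicate 1 (230 reads, 7.11 to 15.1%), 100% in replicate 2 (99 reads, 96.3 to 100%) and 97.1% in replicate 3 (104 reads, 91.9 to 99.0%), against 5.13%, 11.4% and 7.69% in F1. Adar F1 replicate 1 was thus the only one of the 3 close to F1 at locus 15, and the only one far from F1 at X 19535625. With both alleles summed, X 4253674 and X 19535625 were not called between Adar F1 and F1 (adjusted p = 0.140 and 0.153).

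**Figure D2:**
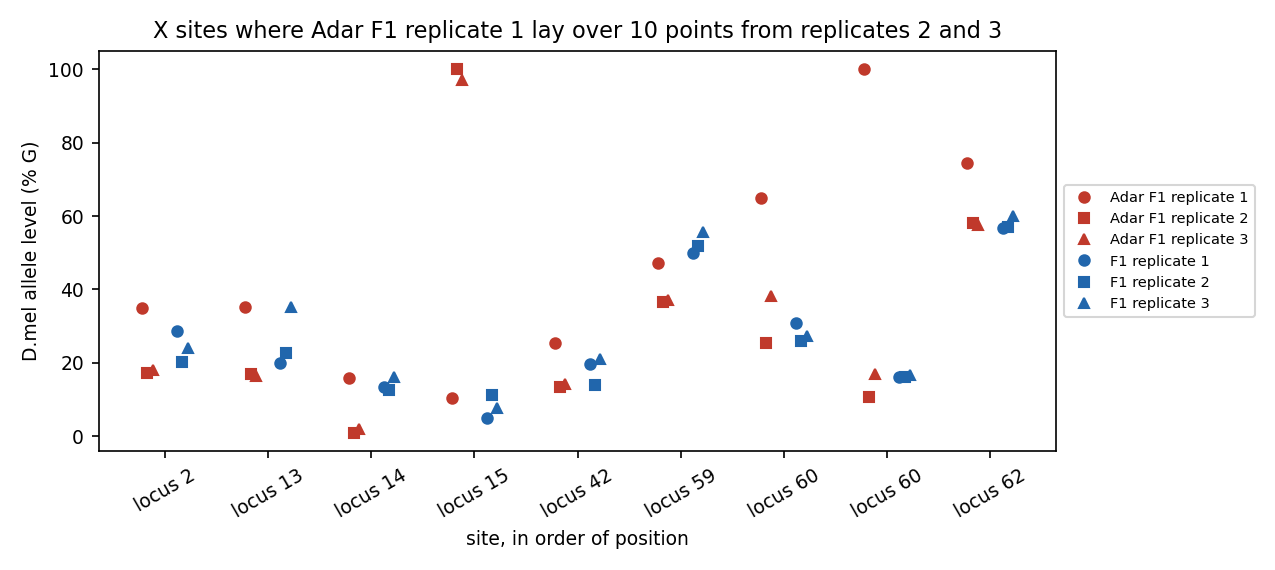
Level of the D.mel allele (percentage of G, vertical axis) in each Adar F1 and F1 library at the 9 X sites, in order of position, where Adar F1 replicate 1 lay more than 10 points from both other Adar F1 libraries. The sites of loci 15 and 60 show the largest steps: 10.4% against 100% and 97.1% at locus 15, and 100% against 10.7% and 17.1% at the second site of locus 60.

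The first comparison asks at which X sites the species are edited to different levels. D.sec and D.mel differed at 85 of the 148 X sites tested (57.4%), against 40.6% of all 771 sites tested and 36.6% of those on the other chromosomes. A site was called where the adjusted p was under 0.05 in a quasi-binomial regression, with Benjamini-Hochberg adjustment over all sites tested. The fit took its spread from all 5 groups, so its p-values do not measure the spread of the D.sec and D.mel libraries alone. The same held for F1 against mixed parents and for Adar F1 against F1 with alleles summed. Levels were higher in D.sec at 30 X sites and lower at 55, while 15.8% and 24.8% of all tested sites were called in these directions. The called X sites came from 29 of 42 loci, of which 7 held higher sites only, 10 held lower sites only and 12 held both. The median size of the difference was 5.61 points over the X sites and 3.06 points over the sites elsewhere. Sites where over 5% of a parent library's reads were given to the other species made up 35 of the 148 and held 25 of the calls, and the part of read assignment in them was not tested. Without them, 60 of 113 X sites were called, while the shares of 40.6% and 36.6% above include such sites and do not serve for this count.

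The largest rise at a site with fewer than 95% G in both species was at X 1267594 in locus 5, where 78.8% and 80.7% of D.sec reads carried G, against 18.8% and 21.1% of D.mel reads. Both D.sec libraries lay far above both D.mel libraries. Sites were named only where libraries did not overlap, which held at 113 of the 148 X sites tested and at all 85 called. The means were 79.8 ± 1.36% in D.sec and 19.9 ± 1.61% in D.mel (SD, n = 2 each, adjusted p = 1.28e-10). Most other sites of the same locus went the other way: of its 17 tested sites, 3 were higher and 11 lower in D.sec. At X 1267379 in locus 5 the level was 4.55% and 8.73% in D.sec, against 26.3% and 25.7% in D.mel (adjusted p = 4.19e-06), and 33.8% of the reads of D.sec replicate 1 at this locus were given to D.mel.

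Locus 14, with 13 sites in 229 bases, held adjacent bases that differed in opposite directions. At X 3847311 the level was 50.4% and 53.4% in D.sec, against 6.55% and 7.44% in D.mel (adjusted p = 6.32e-10). At the adjacent base, X 3847312, it was 17.6% and 21.8% in D.sec, against 99.7% and 100% in D.mel. X 3847328 was also higher in D.sec, with means of 28.0 ± 1.72% in D.sec and 2.92 ± 0.347% in D.mel (SD, n = 2 each). Of the 13 sites of the locus, 4 were higher and 4 lower in D.sec, and the mean over its 12 sites covered everywhere was 23.2% and 25.3% in the D.sec libraries, against 24.0% and 24.1% in the D.mel libraries.

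The largest falls included sites where D.sec was at or near 0. At X 11598221 (locus 30) D.sec read 0% and 1.42%, against 38.1% and 37.4% in D.mel (adjusted p = 9.76e-10). At X 9172609 (locus 24) none of 288 D.sec reads carried G (a count of 0 sets a limit of 1.04%), against 28.8% and 31.4% in D.mel (adjusted p = 8.77e-08). At X 14723854 (locus 42) D.sec read 0.517% and 0.322%, against 21.2% and 17.9% in D.mel. These 3 sites were edited in D.mel and close to unedited in D.sec, whereas X 7632553 (locus 21) kept a low level in D.sec, 3.604% and 3.87%, against 26.1% and 26.3% in D.mel. The reverse case was X 9171041 (locus 23), with 17.9% and 18.5% in D.sec, against 1.23% and 1.14% in D.mel (adjusted p = 2.95e-09).

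Differences also occurred at highly edited sites, where both species were edited. X 14890707 (locus 43) averaged 67.8 ± 3.35% in D.sec and 49.7 ± 0.997% in D.mel, and X 11843915 (locus 32) averaged 75.0 ± 2.84% in D.sec and 57.6 ± 3.88% in D.mel (SD, n = 2 each). X 18064159 (locus 54) was lower, with 60.6 ± 0.0187% in D.sec and 78.2 ± 0.353% in D.mel. At locus 6 the falls were large but less even among D.sec libraries. X 1272312 read 0.725% and 15.7% in D.sec, against 51.4% and 46.7% in D.mel (adjusted p = 4.10e-06), and 46.8% of the reads of D.sec replicate 1 at that locus were given to D.mel. The 117 reads of D.sec replicate 1 given to D.mel at X 1272312 carried 38.5% G, against 0.725% in the reads given to D.sec, so the level of that library depends on the assignment. The smallest of the named rises, X 11862709 (locus 35), was 18.4% and 31.8% in D.sec, against 11.03% and 17.4% in D.mel, with an adjusted p of 0.0467. All 4 of its libraries held 114 to 145 reads.

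At 6 of the tested X sites 1 species read at least 95% G, and all 6 were called. D.sec was the high species at X 4253674 (99.3% in D.sec, 0.588% in D.mel), X 2006388 (100% in D.sec, 14.8% in D.mel), X 19535625 (99.5% in D.sec, 20.3% in D.mel) and X 3847297 (99.8% in D.sec, 27.6% in D.mel). D.mel was the high species at X 3847312 (19.7% in D.sec, 99.9% in D.mel) and X 3847285 (52.0% in D.sec, 100% in D.mel). Near-complete editing of an A and a G in the genome cannot be told apart from these reads. X 2006389, the base next to X 2006388, moved the other way, with means of 8.83% in D.sec and 26.1% in D.mel.

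**Figure D3:**
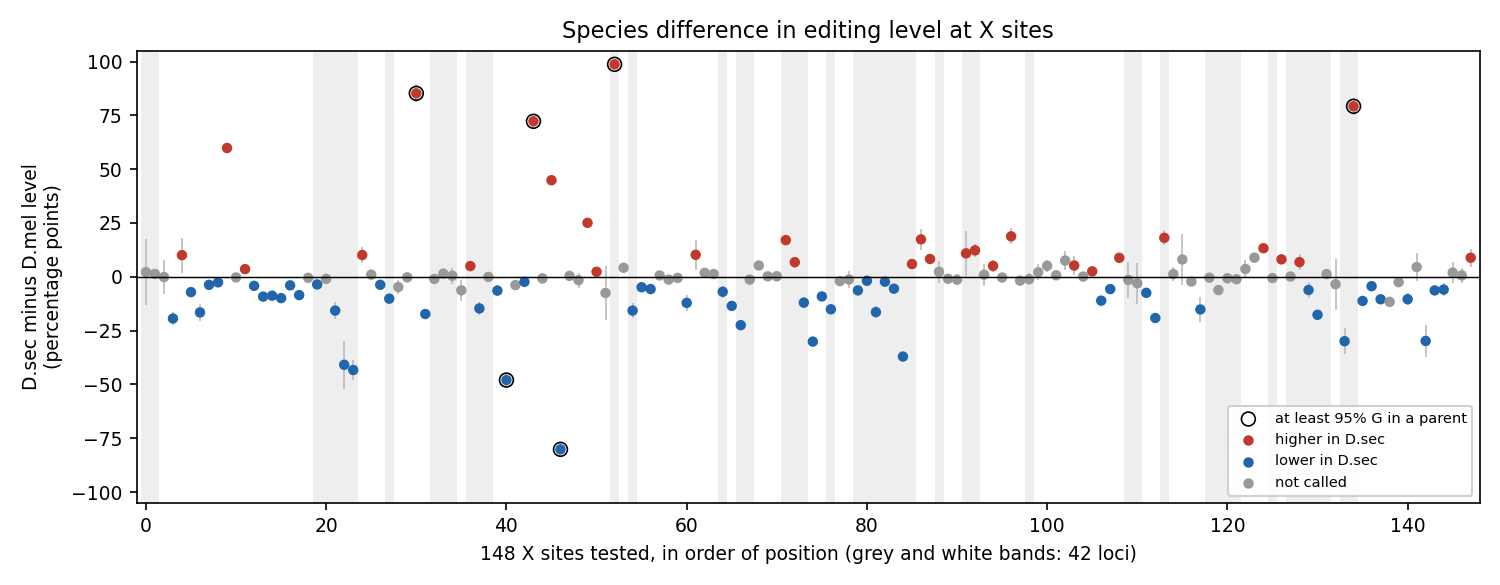
Difference in editing level, D.sec minus D.mel in percentage points (vertical axis), at the 148 X sites tested in order of position (horizontal axis, bands mark the 42 loci). Points are differences of means, bars the root of the summed squared SDs (n = 2 each), colours the 30 higher, 55 lower and uncalled sites, and rings the 6 sites at 95% G or more in a species. Higher and lower sites stand side by side within many loci.

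Averaged over the 167 X sites covered in all 4 libraries, the level was 16.1% and 17.6% in D.sec, against 17.5% and 17.6% in D.mel. D.sec replicate 2 lay between the D.mel libraries and D.sec replicate 1 below both. An exact two-sided permutation test over libraries gave p = 0.667 (adjusted 0.667 over 6 such values), where 2 against 2 libraries cannot go below 0.333. Without D.sec replicate 1 the difference was 0.0387 points.

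The second comparison asks whether the difference between species stays with the allele when both are read in the same library. In F1, the D.sec allele differed from the D.mel allele at 33 of 86 X sites tested, higher at 15 and lower at 18, against a background of 31.7% of all tested sites (13.3% higher, 18.5% lower). In mixed parents, a mixture of both species, it differed at 31 of 85 X sites (background 27.6%, made up of 11.2% higher and 16.4% lower), higher at 14 and lower at 17. In Adar F1 it differed at 26 of 55 X sites (background 34.1%, made up of 13.4% higher and 20.8% lower), higher at 14 and lower at 12. The calls within libraries depended on how the spread was estimated, which treats it here as nearly shared by all sites, so that the smallest p-values come close to counting error and are not given. With the plain form of that estimate 18 X sites were called in F1, none in mixed parents and 15 in Adar F1, while limma on transformed levels called 34, 26 and 20.

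The direction seldom changed between separate species and alleles. Of 46 X sites that differed between D.sec and D.mel and were also tested in F1, 42 had the same sign in F1, 30 were called with it and none was called with the opposite sign. For mixed parents 48 of 49 such sites had the same sign, and 31 were called with it. For Adar F1 29 of 30 had the same sign, and 23 were called with it. Over these sites the median gap between alleles was 75.2% of the gap between species in F1, 89.5% in mixed parents and 47.9% in Adar F1. The medians come from different sets of 46, 49 and 30 sites, so they do not compare the groups with each other. The sites were chosen by their species gap, and a choice of that kind makes gaps in other libraries smaller on average.

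X 1267594 again showed the largest rise below 95% G. The D.sec allele read 87.5%, 87.1% and 81.5% in F1, against 15.5%, 6.98% and 9.15% for the D.mel allele. In mixed parents the alleles read 77.8% and 84.3% for D.sec, against 15.7% and 9.56% for D.mel. Sites were named only where the alleles did not overlap, which held at 42 of the 86 X sites tested in F1 and at 57 of 85 in mixed parents. At X 3847311 the D.sec allele averaged 49.9 ± 7.99% and the D.mel allele 6.01 ± 1.28% in F1 (SD, n = 3 each). The adjacent X 3847312 stood at 18.8 ± 3.22% on the D.sec allele and 99.4 ± 0.569% on the D.mel allele, which may be a genomic G.

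Further X sites of F1 showed moderate gaps. At X 641623 (locus 2) the D.sec allele read 49.6%, 40.8% and 39.7%, against 28.6%, 20.4% and 24.2% on the D.mel allele. In mixed parents the gap at X 641623 was smaller, with means of 33.2% for D.sec and 26.2% for D.mel, and was not called. At X 6002799 (locus 18) the D.sec allele of F1 read 40.0%, 46.8% and 46.4%, against 33.0%, 32.8% and 31.2% on the D.mel allele. The lack of overlap between alleles at both sites follows from how sites were named. Locus 39 held calls in both directions: X 13608022 averaged 0.553 ± 0.0539% on the D.sec allele and 13.2 ± 1.70% on the D.mel allele, and X 13608078 averaged 10.1 ± 1.89% on the D.sec allele and 0.295 ± 0.262% on the D.mel allele (SD, n = 3 each). Of the 12 X loci with a call in F1, 4 held higher sites only, 2 lower sites only and 6 both.

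**Figure D4:**
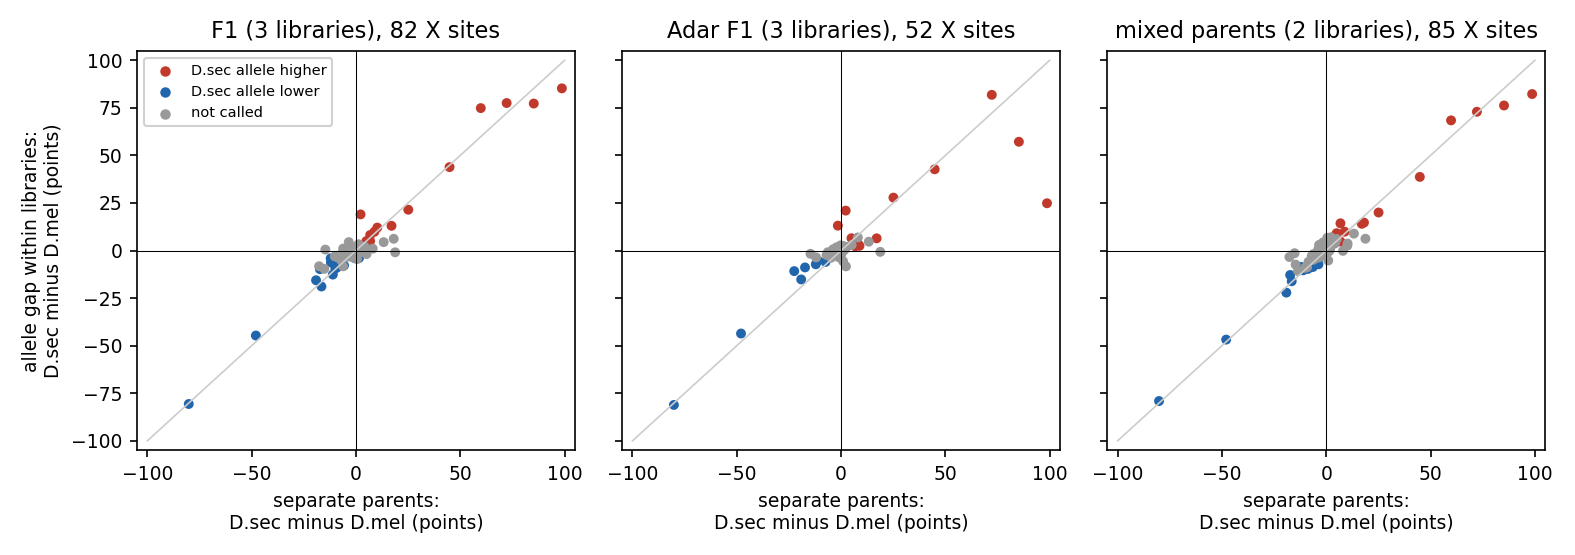
Gap between alleles within libraries (vertical axis, D.sec minus D.mel in percentage points) against the gap between the separate species (horizontal axis, same unit), for X sites of mixed parents, F1 and Adar F1; the grey line marks equal gaps and colours mark called sites. The panels hold 85, 82 and 52 X sites, and no site called in both comparisons of a panel lies in a quadrant of opposite sign.

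The gap itself was tested for change between F1 and the separate species at 84 X sites, of which 4 were called, against a background of 3.61% (1.41% higher, 2.21% lower). At X 1267594 the gap widened by 15.0 points (adjusted p = 0.0412), and at X 6002745 (locus 18) it changed by 8.03 points (adjusted p = 0.0395), where D.sec was the lower side in F1 (80.6% against 84.7%) and in the separate species (79.1% against 91.2%). At X 4253674 it changed by -13.5 and at X 2006388 by -7.97 points (adjusted p = 0.000453 for both). With mixed parents in place of the separate species no X site was called, and the change was 2.99 points at X 4253674 and 1.02 points at X 2006388. With 1 library left out in turn, the call at X 6002745 was lost in every case but that of D.sec replicate 2 (adjusted p 0.0591 to 0.254). The call at X 1267594 was lost without D.mel replicate 1 or 2 or F1 replicate 2 or 3 (adjusted p 0.0801 to 0.291). The number called ranged from 0 to 11 over the alternatives tried.

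The third comparison asks whether hybrids differ from a mixture of both species when both alleles are summed. Of 167 X sites tested, none was called in F1 against mixed parents (background 0.121%), although 12 had an unadjusted p under 0.05, and limma also called none. The largest difference was at X 19228498 (locus 57), which read 57.5%, 55.2% and 50.9% in F1, against 64.4% and 72.5% in mixed parents (adjusted p = 0.385). Levels in F1 were above those in mixed parents at 86 sites and below at 81, with a median difference of 0.06 points.

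The fourth comparison sets hybrids mutant for the D. melanogaster Adar gene against hybrids without that mutation. The gene is X-linked, so the D.mel X chromosome of Adar F1 is the one that carries the mutation. At X sites the mutation and any other difference on that chromosome cannot be told apart. With both alleles summed, 40 of 133 X sites tested differed between Adar F1 and F1 (30.1%, background 33%), lower in Adar F1 at 35 and higher at 5, where 25.5% and 7.43% of all tested sites were called in these directions. The lower calls came from 15 loci and the higher ones from the other 5 loci with a call, and no locus held both. Over all 133 sites the level was lower in Adar F1 at 93, and the median change was -1.67 points, against -1.04 points over the tested sites elsewhere. Relative to F1, the median X site kept 84.9% of its level. Sites below 5% in F1 kept a median of 84.4%, and those from 5 to 20% kept 70.8%. Those from 20 to 50% kept 88.9% and those of 50% or more kept 99.7%. The classes were cut on the F1 level that is also the base of these percentages. They include the 7 of the 133 sites with at least 95% G in a parent, which may be a genomic G. One of these, X 4253674, lies in the highest class, with 53.9%, 56.1% and 56.5% in the F1 libraries. The part of such sites in the medians was not tested.

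X 19228498 had the largest change among the called sites. Both alleles summed read 11.01%, 8.91% and 8.70% in Adar F1, against 57.5%, 55.2% and 50.9% in F1. All 3 Adar F1 libraries lay far below the lowest F1 library. The means were 9.54 ± 1.28% in Adar F1 and 54.5 ± 3.34% in F1 (SD, n = 3 each, adjusted p = 9.81e-07).

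Both alleles of X 19228498 were low in Adar F1. The D.mel allele read 10.8%, 10.4% and 3.57% in Adar F1, against 50%, 52.1% and 54.4% in F1 (adjusted p = 3.84e-06). The D.sec allele read 11.4%, 5.88% and 16.7% in Adar F1, from 34 to 44 reads and so below the coverage minimum, against 64.6%, 58.02% and 47.1% in F1. The site did not pass the test between species, where it read 68.9% and 53.2% in D.sec, against 67.4% and 61.5% in D.mel.

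Among the other called sites, the largest fall, of 16.6 points, was at X 21500480 (locus 61), which read 33.9%, 29.8% and 32.8% in Adar F1, against 47.9%, 47.7% and 50.7% in F1 (adjusted p = 7.81e-05). X 11598221, close to unedited in D.sec, read 23.0%, 15.8% and 18.6% in Adar F1, against 31.9%, 26.9% and 34.0% in F1 (adjusted p = 0.0018). X 1272311 (locus 6) fell to 2.81%, 1.75% and 4.19% in Adar F1, against 15.8%, 15.8% and 13.6% in F1 (adjusted p = 6.82e-06). Every Adar F1 library was below every F1 library at each of these sites, but sites were named only where groups did not overlap. A lack of overlap, in either direction, held at 58 of the 133 X sites tested and at all 40 called. At locus 39, 6 of 7 tested sites were called lower, at locus 5, 6 of 10, and at locus 6, 5 of 5. All the called sites of loci 5 and 6, and X 21500480, were among the 17 of the 40 calls at sites where over 5% of a parent library's reads were given to the other species, and the part of read assignment in them was not tested. At loci 14 and 18, by contrast, none of 12 and none of 5 tested sites was called.

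The 5 rises lay in 5 loci. X 21904545 (locus 62) read 11.4%, 11.03% and 9.32% in Adar F1, against 2.92%, 2.08% and 3.21% in F1 (adjusted p = 0.00494). X 2275034 (locus 13) read 5.50%, 4.38% and 5.98% in Adar F1, against 1.16%, 3.20% and 2.95% in F1 (adjusted p = 0.0315). Here too the lack of overlap follows from how sites were named. The other 3 were X 2006388 (57.6% in Adar F1, 45.6% in F1), X 5525068 (54.8% in Adar F1, 43.9% in F1) and X 9468688 (69.1% in Adar F1, 55.1% in F1). X 2006388 read 100% G in D.sec, so its summed level may include reads of a genomic G.

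A summed level also moves with the share of reads from each allele. The D.mel share at X 9468688 was 49.99% in Adar F1 and 83.4% in F1, at X 5525068 69.1% in Adar F1 and 94.9% in F1, and at X 18064159, which was lower by 12.4 points, 19.7% in Adar F1 and 52.9% in F1. The part of these shares in the calls was not tested. Over the X sites the mean D.mel share per library was 73.1%, 72.1% and 71.2% in Adar F1, against 75.7%, 75.3% and 75.3% in F1 (exact two-sided permutation p = 0.1, the smallest that 3 against 3 libraries allow, adjusted 0.6). The share moved by over 30 points at 9 of the 133 sites, a limit set after the values were seen. Without them 36 sites were called, and the background of 33% includes such sites.

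Read coverage differed between Adar F1 and F1 more than between libraries of one group. No read was present at 46 to 48 X sites in Adar F1 libraries, against 4 to 13 in F1 libraries. Across the 219 X sites, which share PCR pools and loci, the correlation of coverage was 0.389 to 0.514 between Adar F1 and F1 libraries, 0.985 to 0.991 among Adar F1 libraries and 0.790 to 0.987 among F1 libraries, and coverage and genotype cannot be told apart. Without sites where over 5% of a parent library's reads were given to the other species, 21 of 100 X sites were called. Without Adar F1 replicate 1, which stood apart at loci 15 and 60, 50 X sites were called. The background of 33% was taken over all sites and libraries, so it does not serve for either count.

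Taken by allele, nearly all calls were on the D.mel allele. On that allele 33 of 111 X sites were called (29.7%, background 26.8%), 30 lower and 3 higher in Adar F1 (background 22.3% and 4.57%). Without Adar F1 replicate 1, 50 X sites were called, where the background of 26.8% is from all libraries. On the D.sec allele 2 of 57 X sites were called (3.51%, background 16.3%, made up of 2.82% higher and 13.5% lower), both lower, and 1 to 5 when a library was left out. The difference in counts is not a test of the alleles against each other. Of the 111 sites, 72 were tested on the D.mel allele only, with a median D.mel share of 98.2% in Adar F1 and 97.8% in F1, and these held 30 of the 33 calls. At 33 of these 72 sites over 5% of a parent library's reads were given to the other species.

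The 39 X sites tested on both alleles allow the alleles to be set side by side. The D.mel allele was lower in Adar F1 at 33 of them, with a median change of -1.66 points, and 3 were called (background 26.8%). The D.sec allele was lower at 24, with a median change of -0.41 points, and 1 was called (background 16.3%). Each background is over all sites tested on that allele, so few of these X sites were called on either allele. No site was called on both alleles.

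The calls on the D.sec allele were at sites with a higher level on that allele. X 9171041 read 9.84%, 6.52% and 6.41% on the D.sec allele of Adar F1, against 18.0%, 12.9% and 15.2% in F1 (adjusted p = 0.0128). X 13608078 read 3.35%, 2.18% and 2.35% on the D.sec allele of Adar F1, against 12.3%, 8.94% and 9.15% in F1 (adjusted p = 8.53e-06). Groups did not overlap at either site, a condition for naming that held at 12 of the 57 X sites tested on the D.sec allele. On the D.mel allele, X 9172609 (locus 24) read 11.6%, 12.4% and 5.80% in Adar F1, against 24.2%, 23.3% and 15.9% in F1 (adjusted p = 0.0149). X 2006388 went up on the D.mel allele, to 35.1%, 38.6% and 28.0% in Adar F1, against 15.8%, 12.3% and 15.8% in F1 (adjusted p = 0.000568).

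**Figure D5:**
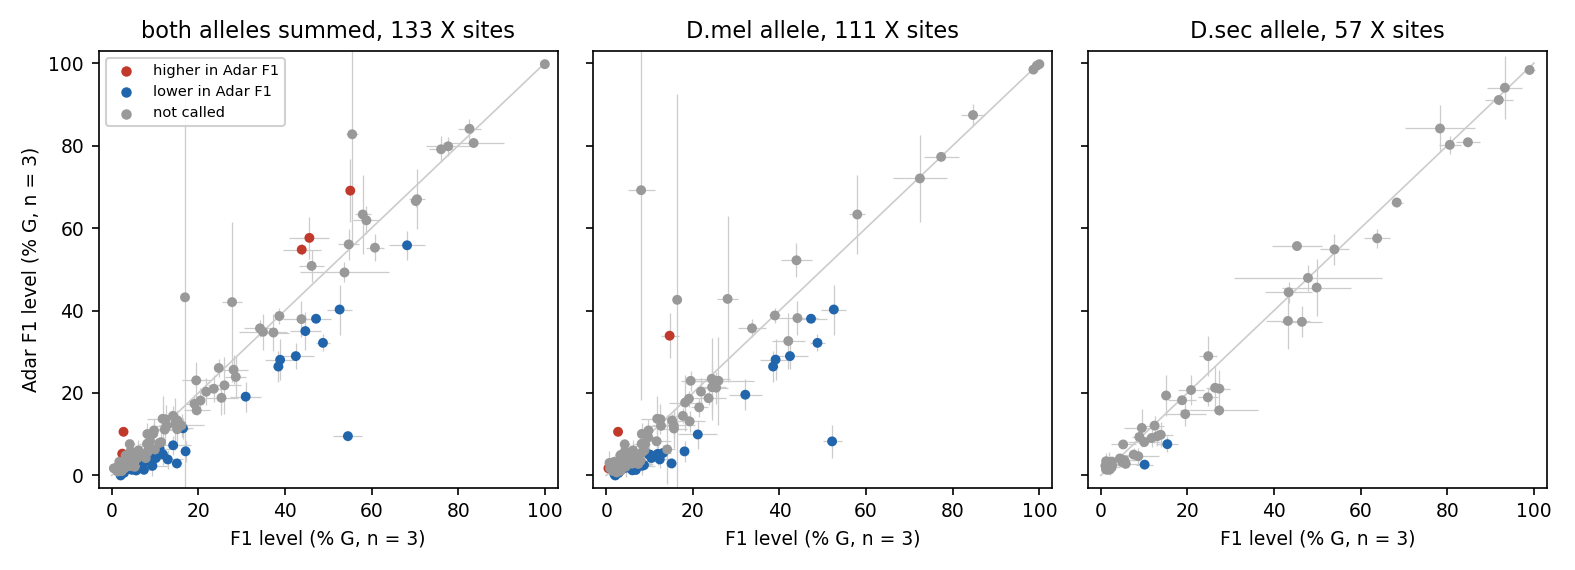
Mean level in Adar F1 (vertical axis) against F1 (horizontal axis), both in % G with SD bars (n = 3 each), at X sites for both alleles summed (133 sites), the D.mel allele (111) and the D.sec allele (57); the grey line marks equal levels and colours mark called sites. X 19228498 is the point far below the line at 54.5% in F1 and 9.54% in Adar F1, and the D.sec allele has 2 called sites.

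The change of the allele gap between Adar F1 and F1 was called at 3 of 48 X sites (background 4.11%, made up of 1.58% higher and 2.53% lower). At X 4253674 the gap changed by -60.4 points (adjusted p = 0.0402), with the D.mel allele at 10.4%, 100% and 97.1% in Adar F1. Without Adar F1 replicate 1 it changed by -85.4 points and stayed called. The call was lost when any other library was left out (adjusted p 0.137 to 0.761). At X 2006388 it changed by -20.1 points (adjusted p = 0.0416), and this call was lost without any 1 library other than F1 replicate 1 (adjusted p 0.0774 to 0.523, and 0.273 without Adar F1 replicate 1). At X 3847324 (locus 14) it changed by 12.1 points (adjusted p = 0.00344), with the D.mel allele at 15.8%, 0.974% and 2.13% in Adar F1, against 13.5%, 12.7% and 16.05% in F1. Without Adar F1 replicate 1 that change was 13.9 points and the site stayed called. The call was lost without F1 replicate 2 or 3 or Adar F1 replicate 2 or 3 (adjusted p 0.138 to 0.605). The count ranged from 0 to 3 over the alternatives tried, and was 0 with the plain form of the spread estimate. As for alleles within libraries, the form kept treats the spread as nearly shared by all sites. The smallest p-values therefore come close to counting error and are not given.

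Averaged over the 163 X sites covered in all hybrid libraries, the level was 16.3%, 13.9% and 14.2% in Adar F1, against 16.7%, 15.7% and 16.4% in F1. Adar F1 replicate 1 fell within the F1 values and the other 2 lay below them. The difference of -1.46 points gave an exact two-sided permutation p of 0.2 (adjusted 0.6), where 0.1 is the smallest possible. Relative to the mean over autosomal sites of the same libraries, X sites differed by -0.60, -1.42 and -1.36 points in Adar F1, against -1.37, -1.51 and -1.14 points in F1, so the groups overlapped (exact permutation p = 0.6). Leaving out sites where a parent reached 95% G gave a difference of -0.61 points, with an exact permutation p of 0.1.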

How the data were processed

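RNA editing was measured by mmPCR-seq, multiplexed PCR of chosen loci followed by sequencing, in 12 libraries of fly heads. The deposited tables give, per site and library, A and G read counts assigned by the authors to each species, and an editing percentage per species. The submitters' processing notes name BWA and the build dm3; how reads were assigned to a species is not given in the sources used here. The deposited percentages differed from those recomputed from the counts by at most 0.05 points over 10713 D.mel and 9890 D.sec values, and were listed as 0 at 1982 and 2805 values with no read; levels were recomputed from the counts.

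A site entered a comparison if each library or allele in it held 50 reads or more and the mean level reached 1%. Each such site on every chromosome was fitted by quasi-binomial logistic regression in R 4.3.3. Comparisons between groups with own-species or summed reads were fitted over all 5 groups. Those of a single allele between Adar F1 and F1 were fitted with mixed parents added. Its dispersion, with a floor of 1, was moderated towards a trend in coverage with limma 3.58.1. F-test p-values were adjusted over all tested sites by the Benjamini-Hochberg method (threshold 0.05). The regression and the forms of its dispersion estimate were tested on simulated data. Library means over X sites went into exact permutation tests in Python 3.11.15 (pandas 2.3.3, numpy 2.4.6), with Wilson intervals from scipy 1.17.1 and a limit of 3 reads for a count of 0.

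The moderation departs from the design as first written, which estimated it from all sites. That form was run first and its calls were seen. 6 forms were tried in all, with the calls known, and the one kept estimates the trend from sites with at least 1 expected G and A read. The choice was made after the forms had been tested on simulated data and with the real calls in view. The simulated spread came from the fit of the form kept, so the simulation could not choose fairly between the forms. The members, lists and comparisons were chosen with earlier results of these data known.

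Named sites are, per comparison, the called X sites with no overlap between libraries: the 10 largest rises and 10 largest falls, at most 3 per locus, with sites of at least 95% G in a parent named apart. Between species X 2006389, and the values of X 19228498 in F1 against mixed parents, were chosen after their values were seen. Deviations of same-numbered libraries from their group means correlated at 0.146, 0.138 and 0.0435 for Adar F1 with F1, against -0.140 to 0.0581 for different numbers. They correlated at -0.104 and -0.123 for F1 with mixed parents and at -0.0512 for D.sec with D.mel. All 3 same-number values for Adar F1 with F1 were positive, so variation shared by number was not excluded. The labels name no shared source, and the numbers were not used as pairs. Alternatives covered the coverage and level minimum, limma on arcsine-square-root levels, sites at 95% G, replicate blocks, the dispersion and each library left out. No gene annotation was used here.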

Additional observations from a re-analysis of the deposited data

Results flagged for a closer look

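The gap between the D.sec and D.mel alleles differed between F1 and the separate species at 4 X sites by a test of the difference itself. It changed by 15.0 points at X 1267594, by -13.5 points at X 4253674, by 8.03 points at X 6002745 and by -7.97 points at X 2006388. With mixed parents in place of the separate species none of them was called, and the changes at X 2006388 and X 4253674 were 1.02 and 2.99 points. Between Adar F1 and F1 the same kind of test called 3 X sites, with changes of -60.4 points at X 4253674, -20.1 points at X 2006388 and 12.1 points at X 3847324. None was called without F1 replicate 2 or 3 or Adar F1 replicate 2 or 3.

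The libraries of a single species held X reads given to the other species, which lie outside the comparisons of levels and are given here for that reason. Their share was 9.87% in D.sec replicate 1, 3.09% in D.sec replicate 2, 6.72% in D.mel replicate 1 and 6.23% in D.mel replicate 2.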

How the results depend on the processing

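The number of X sites called between species stayed within 1.5 times its value under every alternative run, and 73 of 134 named site results stayed called throughout. Of 2188 alternative values for named sites, 2004 kept direction and call, 182 lost the call (82 of them with a library left out, 66 under another form of the dispersion estimate and 11 with limma) and 2 reversed. With the dispersion estimated from all sites as first designed, 0 X sites were called between alleles in mixed parents, 18 in F1 and 15 in Adar F1, and 0 for the gap change in Adar F1; the robust form gave 13 in mixed parents and 9 for the gap change in F1. A level minimum of 5% left 14 calls between alleles in Adar F1. Without sites where over 5% of a parent library's reads went to the other species, 21 sites were called between Adar F1 and F1 with alleles summed and 16 on the D.mel allele; the mean of both allele levels, which can be formed at fewer sites, gave 7 of 48. The gap change in F1 was called at 2 sites with 20 reads, 2 with limma, 2 with 5 expected reads, 11 with the replicate block, and 0 without sites at 95% G or with mixed parents, where X 2006388 and X 4253674 reversed to 1.02 and 2.99 points. The gap change in Adar F1 was called at 1 site with 100 reads, 1 without sites at 95% G, 1 with 0.5 and 1 with 2 expected reads, and 0 with no replicate block. The replicate block changed no other count by over 1.5 times. The cause of these changes was not tested.

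With a library left out, counts ranged from 71 to 74 between species, 23 to 31 between alleles in F1, 13 to 23 in Adar F1, 29 to 50 for Adar F1 against F1 with alleles summed, 23 to 50 on its D.mel allele, 1 to 5 on its D.sec allele, 2 to 10 for the gap change in F1 and 0 to 3 for that in Adar F1. The libraries behind changes of over 1.5 times were Adar F1 replicate 3 for alleles in Adar F1 (13 without it) and Adar F1 replicate 1 for the D.mel allele (50). On the D.sec allele they were F1 replicates 1 (1) and 2 (4) and Adar F1 replicates 1 (5), 2 (1) and 3 (1). For the gap change in F1 they were D.mel replicate 1 (2), D.sec replicate 2 (10) and F1 replicate 2 (2), and for that in Adar F1, F1 replicates 2 and 3 and Adar F1 replicates 2 and 3 (0 each). Mixed parents with 1 library left no residual spread for a test of alleles. The mean X level of D.sec minus D.mel ranged from -1.47 to 0.0387 points, and that of Adar F1 minus F1 from -2.20 to -1.04. The X-minus-autosome difference between Adar F1 and F1, 0.22 points, ranged from -0.0430 to 0.364 with a library left out; it was -0.12 as a median over sites and -0.61 without sites at 95% G (exact permutation p = 0.1, the smallest possible). That between D.sec and D.mel, 1.24 points, was -1.57 as a median and -0.97 without sites at 95% G. The D.mel share on X minus that on autosomes, 0.57 points, was -16.5 as a median. Levels from 50 reads carry wide counting error, which limits small differences at low levels.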
